A study of Arabidopsis thaliana with 12 samples.

Results

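A group of 48 probe sets on the Affymetrix ATH1 array gave a lower signal in anthers of the ms35 mutant than in wild type at all 3 labelled stages of pollen development. They were chosen from 22746 probe sets, control probe sets left out, by their raw signals: within each stage the lower wild-type array had to reach at least 1.5 times the higher ms35 array, and at least one of the 12 arrays had to exceed 100. Of 56 probe sets that met these terms, 7 genes were left out by name, among them the xylan synthesis gene IRX15-L and the phenylpropanoid gene HCT, and so was 1 plastid-encoded gene, ccsA. IRX15, also barred by name, did not meet the terms. The 48 members made up 0.212% of the 22669 probe sets that the terms could take in, and 42 probe sets (0.185%) met the mirror-image terms, higher in ms35 at every stage. Of the members, 15 had exactly 1 gene in the probe annotation, 1 had several, and 32 had none listed and go by their probe set identifiers.

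MS35, also called MYB26, is a transcription factor of the Arabidopsis anther. It acts in the endothecium, the cell layer under the anther epidermis, whose cells lay down bands of lignified secondary wall before the anther opens. Without it these bands do not form, the anther stays shut and viable pollen is not released. Secondary walls are built from cellulose, xylan and lignin, and NST1 and NST2, transcription factors of the NAC family, are known to act downstream of MYB26 in turning on their synthesis. The series set out to find genes that act downstream of MS35.

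The RNA came from whole Arabidopsis thaliana anthers, filaments included, with 2 arrays in each of 6 groups. The wild-type control (stock code N64) has the source name Glabra while its titles give Ler, and the ms35 knock-out is given the background Ler-0, so a difference here is one between these lines. Both genotypes were sampled at stages labelled PMI, for pollen mitosis I, bicellular, and PMII, for pollen mitosis II, from plants grown at 22 °C with 22 h of day and 2 h of night. Whether the paired arrays of a group stem from different plants is not given in the labels, and the p-values therefore rest on a spread between arrays that may be technical. Arrays of a group correlated across probe sets with r from 0.910 to 0.941, and array medians ran from 37.3 to 45.3. GAPDH control probe sets, whose 3' to 5' ratio tells of RNA integrity, gave ratios of 1.29 to 2.86, with the highest on the arrays of wild type PMII replicate 2 (2.86) and of ms35 bicellular replicate 2 (2.37). MYB26, NST1 and NST2 were not analysed here, as no probe set carried their names.

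The stage names are used as labelled, although marker genes went against the order in which these stages follow each other. Every step below runs from the label named first to the label named last. If the PMI and PMII labels were exchanged, the steps would run the other way in time, with rises and falls exchanged. Whether they are was not tested. A listed gene is called measured where a probe set with exactly 1 gene in the annotation matched it, and the others were not looked at. The summed signal of 10 measured late pollen genes, of 15 on the list, was 3669 to 3710 on the wild-type arrays labelled PMI. On those labelled PMII it was 326 to 410, although PMI comes before PMII in pollen development. The sum of 5 measured genes of the tapetum and pollen coat, of 17 listed, was 292 to 349 at labelled PMI and 6201 to 6750 at labelled PMII. The tapetum is the nurse tissue of the pollen and is gone by the time pollen ripens. Both markers run in the same direction in ms35, with late pollen sums of 2406 to 2902 at PMI and 316 to 389 at PMII. In these bulk samples, fewer cells of a type and less RNA per cell cannot be told apart.

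The size of the gap between the genotypes is what chose the members, so it is given as a description. Signals under 25.5, the 40th percentile of all values, are treated as low, and a fold whose ms35 mean lies under this limit is taken against the limit and written as "at least". Where both means lie under the limit, the ratio counts as 1-fold. On that scale the median ratio of wild-type to ms35 mean signal over the 48 members was 3.36-fold at PMI, 6.10-fold at bicellular and 2.33-fold at PMII. These medians are lower bounds, and with no limit applied they were 3.85-fold, 8.84-fold and 3.24-fold. The ratio against the limit was 10-fold or more for 5 members at PMI, 18 at bicellular and 2 at PMII. With no limit applied it was so for 8, 22 and 6. The ms35 mean lay under the limit for 14 members at PMI, 20 at bicellular and 23 at PMII. In that last stage the wild-type mean of 5 of these was under it too, so that their ratio there rests on low signals on both sides. The ms35 signal was low on all 6 mutant arrays for 8 members and on none of them for 18. In 35 members the lowest of the 6 wild-type arrays still lay above the highest of the 6 ms35 arrays. The choice of members already required this within each stage, and the share over all probe sets was not computed. Nothing is read from this count.

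**Figure D1:**
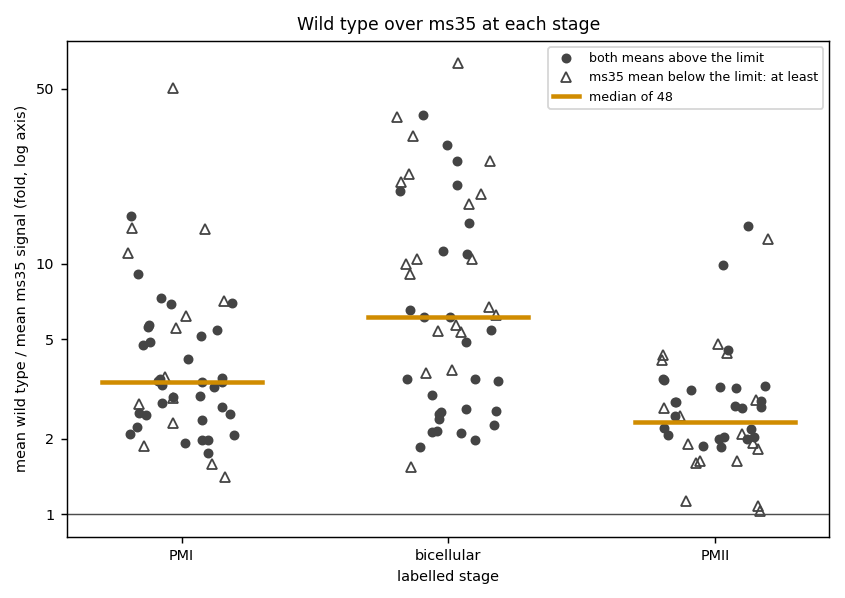
Ratio of the mean wild-type to the mean ms35 signal (2 arrays each, log axis) for the members at each labelled stage, with means under 25.5 set to that limit. Open triangles are lower bounds, the bars are medians over 48 members (3.36, 6.10 and 2.33), and the 5 members with both means under the limit at PMII are not drawn; the bicellular points reach highest.

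On the log2(signal + 2.23) scale, the ms35 minus wild-type difference averaged over the stages had a median of -2.31 among the members, from -4.79 to -0.99, against 0.02 over all 16464 probe sets tested. All 48 were called lower by limma at a Benjamini-Hochberg adjusted p under 0.05, where 3.03% of all tested probe sets were, but since this contrast chose them nothing is read from that count. At single stages 30 members were called lower at PMI, 41 at bicellular and 21 at PMII, where 1.03%, 1.37% and 0.516% of all tested probe sets were, with the same caution. Taken at 1 stage alone, the terms on ratio and signal were met by 413 probe sets at PMI (1.82%), 398 at bicellular (1.75%) and 334 at PMII (1.47%). The smallest of the 3 ratios, the one that decided membership, was at PMII for 31 members, at PMI for 9 and at bicellular for 8. Its median was 1.96 and it was at least 5 in 4 members. Just inside the threshold lay 266221_at (1.51), 261999_at (1.51) and AT3G03150 (1.50005), and just outside 248606_at (1.495), 255037_at (1.49) and UGT74F1 (1.48).

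The wild-type signals of the members fell into a few stage patterns, and the named genes are described in that order. In 22 members both bicellular arrays lay above the other 4 wild-type arrays, where 8.30% of all tested probe sets did so, and 9.71% of the 9474 that had an array above 100. In 11 members both PMI arrays were the highest (18.1% of all tested and 22.7% of the 9474), in 3 both PMII arrays were (18.3% and 19.7%), and 12 had no stage that stood clear of the others. By stage means, wild type peaked at bicellular in 29 members (60.4%), against 27.5% of the same 9474. These comparisons were added after the data were seen, and the same wild-type arrays entered the choice of members.

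**Figure D2:**
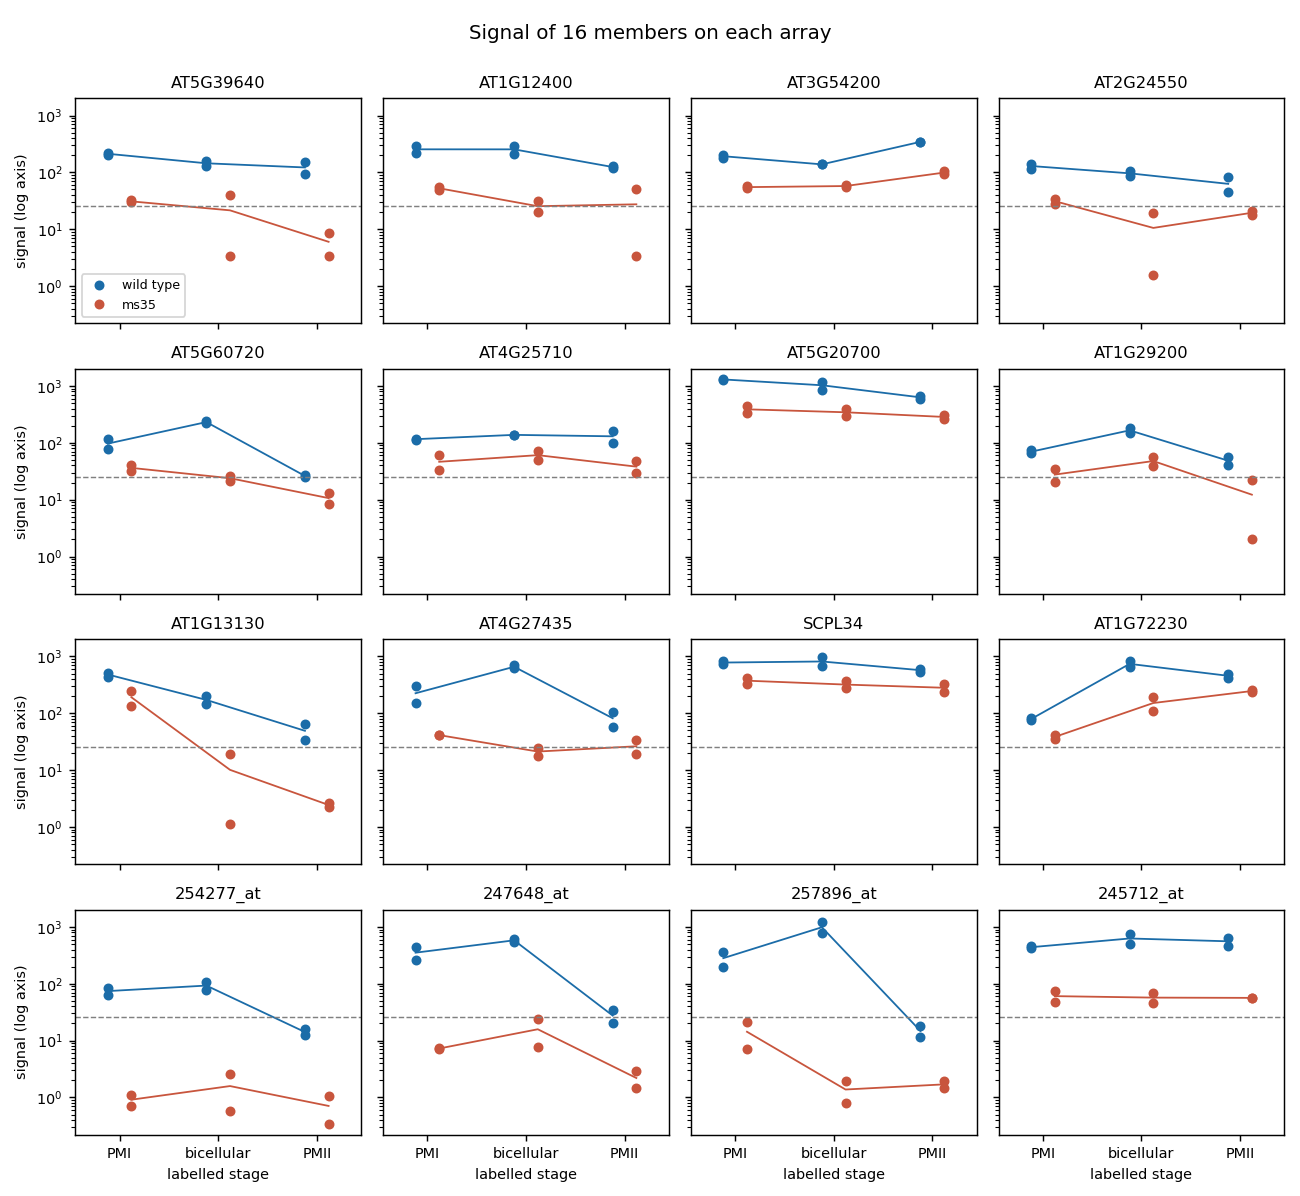
Signal on each of the 12 arrays (log axis) for 16 named members, wild type and ms35 side by side at each labelled stage, with each point 1 array and lines joining the means of 2 arrays; the dashed line is the low limit of 25.5. Within every stage the ms35 points lie below the wild-type points, as the choice of members requires, and the wild-type lines of AT5G60720 and AT4G27435 peak at bicellular.

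Among the members with a clear bicellular peak, AT4G27435, which codes for a membrane protein of a plant family of unknown function, had wild-type signals of 297 and 154 at PMI, 624 and 693 at bicellular, and 107 and 56.9 at PMII. The ms35 arrays read 41.0 and 41.6 at PMI, 17.5 and 25.0 at bicellular, and 19.1 and 33.5 at PMII. In the mutant the bicellular arrays were lower than the PMI arrays, and its highest array was below the lowest wild-type array of any stage. The ratio of means was 5.45-fold at PMI, at least 25.8-fold at bicellular and 3.12-fold at PMII. Within wild type the step from PMI to bicellular was a log2 change of 1.61 ± 0.38 (SE; limma adjusted p = 0.0132), and the step from bicellular to PMII was -3.04 ± 0.38 (limma adjusted p = 0.00332). The rise was lost when bicellular replicate 1 (limma adjusted p = 0.0557), bicellular replicate 2 (0.0966) or PMI replicate 2 (0.126) of wild type was left out, and the fall when bicellular replicate 2 was (0.0642).

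AT5G60720, a member of another plant family of unknown function, showed the same wild-type shape at lower signal, with 115 and 78.5 at PMI, 223 and 241 at bicellular, and 27.3 and 25.0 at PMII. In ms35 its arrays gave 32.3 and 40.2 at PMI, 26.3 and 21.4 at bicellular, and 8.42 and 12.9 at PMII. At PMI and PMII the wild-type arrays were well under the bicellular pair, and in ms35 the bicellular arrays were lower than the PMI arrays. The wild-type fall into PMII was -3.04 ± 0.33 (SE, log2; limma adjusted p = 0.00113) and kept its call under each alternative run. The wild-type rise into bicellular, 1.26 ± 0.33 (limma adjusted p = 0.0213), lost it when bicellular replicate 1 (0.0927), bicellular replicate 2 (0.147) or PMI replicate 2 (0.153) of wild type was left out.

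AT1G72230 codes for a cupredoxin, a small copper-binding protein. Its wild-type signals were 83.4 and 75.0 at PMI, 664 and 816 at bicellular, and 496 and 417 at PMII, and its ms35 signals were 35.9 and 40.8 at PMI, 191 and 112 at bicellular, and 235 and 258 at PMII. It was dimmest at PMI and rose into bicellular in both genotypes, and the ms35 arrays stayed under the wild-type arrays at each stage. The rise into bicellular was 3.18 ± 0.25 in wild type (SE, log2; limma adjusted p = 3.04e-05) and 1.88 ± 0.25 in ms35 (limma adjusted p = 0.00482), the latter lost when the fit held only the arrays compared (0.0814). It was the 1 member called higher in that step in ms35. Its ratio of means was 2.06-fold at PMI, 4.88-fold at bicellular and 1.85-fold at PMII.

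AT1G29200, of the O-fucosyltransferase family, whose enzymes add fucose to proteins, read 66.1 and 73.6 at PMI, 148 and 184 at bicellular, and 55.5 and 41.5 at PMII in wild type and 34.6 and 20.6 at PMI, 39.8 and 55.9 at bicellular, and 22.4 and 2.07 at PMII in ms35. Both bicellular arrays were the highest of their genotype in each line. No stage step of this gene passed the test in either genotype. Its ratio of means was 2.53-fold at PMI, 3.47-fold at bicellular and at least 1.90-fold at PMII.

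Both remaining single-gene members whose bicellular arrays lay above the other wild-type arrays fall outside the naming rule. They were picked after their values were seen. AT3G49300 had wild-type signals of 93.1 and 47.0 at PMI, 441 and 447 at bicellular, and 418 and 418 at PMII. Its ms35 signals were 30.2 and 10.9 at PMI, 37.6 and 41.4 at bicellular, and 20.7 and 38.3 at PMII. In wild type it was dimmer at PMI, and its bicellular and PMII arrays were close together at a level where the highest ms35 array read 41.4. The wild-type rise from PMI to bicellular was 2.70 ± 0.43 (SE, log2; limma adjusted p = 0.00172) and kept its call under each alternative run. At PMII its 14.2-fold ratio was the largest of any member on the scale that uses the limit. AT2G47500, a kinesin with a calponin homology domain, of a family that links microtubules to actin, read 46.0 and 34.7 at PMI, 125 and 192 at bicellular, and 30.3 and 27.1 at PMII in wild type and 13.5 and 1.08 at PMI, 9.21 and 34.8 at bicellular, and 17.3 and 13.4 at PMII in ms35. In wild type its 2 bicellular arrays stood apart from the other 4, and none of its steps passed the test.

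Among the members without a single gene listed, 257896_at spanned a wide range. Its wild-type signals were 365 and 199.5 at PMI, 776 and 1197 at bicellular, and 18.2 and 11.4 at PMII, and its ms35 signals were 21.5 and 7.08 at PMI, 1.96 and 0.795 at bicellular, and 1.47 and 1.93 at PMII. All ms35 arrays were under the low limit while every wild-type PMI and bicellular array was well above it. The ratio was at least 11.1-fold at PMI and at least 38.7-fold at bicellular, and at PMII both genotypes were low. Its wild-type fall from bicellular to PMII was -5.86 ± 0.52 (SE, log2; limma adjusted p = 0.000362) and kept its call under each alternative run, whereas its rise of 1.83 ± 0.52 into bicellular (limma adjusted p = 0.0297) was lost without any 1 of the 4 wild-type PMI and bicellular arrays (0.0575 to 0.252), with no pseudocount (0.0908) and with no filter (0.0503).

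Probe set 247648_at read 441 and 264 at PMI, 549.9 and 612 at bicellular, and 20.2 and 35.0 at PMII in wild type and 7.50 and 7.02 at PMI, 7.77 and 23.9 at bicellular, and 1.47 and 2.92 at PMII in ms35. It was bright at PMI and bicellular in wild type and low on every ms35 array. Its wild-type fall from bicellular to PMII was -4.34 ± 0.47 (SE, log2; limma adjusted p = 0.00113) and kept its call under each alternative run. Probe set 254277_at was dimmer, at 84.2 and 64.3 at PMI, 78.2 and 108 at bicellular, and 12.4 and 15.9 at PMII in wild type, and no ms35 array exceeded 2.59. Its wild-type PMII arrays were themselves low, so no fold is given there, and its fall from PMI to PMII, -2.22 ± 0.72 (SE, log2; limma adjusted p = 0.0367), was lost when any of the 6 wild-type arrays was left out. Probe set 267094_at, named after its values were seen, had the largest ratio on the limit scale, at least 63.2-fold at bicellular, with wild-type signals of 1760.2 and 805 at PMI, 1428 and 1795 at bicellular, and 40.2 and 42.8 at PMII and ms35 signals of 25.9 and 24.1 at PMI, 19.8 and 19.0 at bicellular, and 5.00 and 13.8 at PMII.

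In other members no wild-type stage stood clear of the rest. Probe set 245712_at read 458 and 421 at PMI, 760.5 and 491 at bicellular, and 469.6 and 647 at PMII in wild type and 74.2 and 46.9 at PMI, 46.4 and 67.7 at bicellular, and 56.6 and 56.2 at PMII in ms35. No step passed the test in either genotype, and the ratio of means was 7.26-fold at PMI, 11.0-fold at bicellular and 9.89-fold at PMII. AT1G12400, which codes for the TTDA subunit of TFIIH, a complex of transcription initiation and DNA repair, gave 286 and 223 at PMI, 296 and 212 at bicellular, and 121 and 127 at PMII in wild type. In ms35 it gave 49.4 and 55.6 at PMI, 31.0 and 19.8 at bicellular, and 3.33 and 51.5 at PMII. Its highest ms35 array, 55.6, was less than any wild-type array, and none of its steps passed the test.

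SCPL34, a serine carboxypeptidase-like protein, had some of the highest signals of the named members. Its log2 difference averaged over the stages, -1.15, was the narrowest among them, though AT1G72230 had smaller ratios at PMI and PMII. It read 742 and 821 at PMI, 668 and 963 at bicellular, and 541 and 605 at PMII in wild type and 334 and 415 at PMI, 275 and 365 at bicellular, and 232 and 330.0 at PMII in ms35. Its ratio stayed between 2.04-fold and 2.55-fold at the 3 stages, and none of its steps passed the test. AT4G25710, of the galactose oxidase and kelch repeat family, read 119 and 113 at PMI, 138 and 138 at bicellular, and 159.7 and 101 at PMII in wild type and 59.9 and 32.9 at PMI, 71.7 and 49.8 at bicellular, and 29.3 and 47.0 at PMII in ms35. The lowest wild-type array, 100.8, was above the highest ms35 array, 71.7, and no step of this gene passed the test. AT3G03150, the member nearest the threshold and outside the naming rule, was 3.46-fold higher in wild type at PMI, 1.85-fold at bicellular and 2.03-fold at PMII.

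In another group the wild-type signal was highest at PMI. AT5G20700, of the FLZ zinc finger family, was the brightest of the 15 single-gene members by its mean wild-type signal, with 1320.5 and 1287 at PMI, 863 and 1197 at bicellular, and 676 and 586 at PMII in wild type. Its ms35 arrays gave 438 and 339 at PMI, 391 and 299 at bicellular, and 312 and 258 at PMII. By means the signal was highest at PMI and lowest at PMII in both genotypes, with a ratio of 3.35-fold at PMI and 2.21-fold at PMII. The wild-type fall from PMI to PMII was -1.05 ± 0.22 (SE, log2; limma adjusted p = 0.00421) and kept its call under each alternative run.

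AT1G13130, a cellulase-type glycosyl hydrolase of the kind that cleaves cell wall glucans, fell from PMI to PMII in both genotypes. Its wild-type signals were 443 and 520.0 at PMI, 145 and 199 at bicellular, and 33.4 and 65.0 at PMII, and its ms35 signals were 136 and 246 at PMI, 1.13 and 19.1 at bicellular, and 2.63 and 2.25 at PMII. At PMI the ms35 arrays were well above the low limit, and at bicellular and PMII they were all under it. The step from PMI to PMII was -3.30 ± 0.66 in wild type (SE, log2; limma adjusted p = 0.00312) and -5.31 in ms35 (limma adjusted p = 0.000455), and both kept their calls under each alternative run. The ms35 fall into bicellular, -4.45 ± 0.66 (limma adjusted p = 0.00811), was lost without ms35 PMI replicate 2 (0.0948) and when the fit held only the arrays compared (0.0814). It was the 1 member called lower in that step.

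AT5G39640 had the largest smallest ratio among members with 1 gene, with 221 and 203 at PMI, 131 and 158 at bicellular, and 151 and 92.7 at PMII in wild type and 32.1 and 29.6 at PMI, 3.35 and 39.6 at bicellular, and 3.42 and 8.60 at PMII in ms35. AT2G24550 read 142 and 116 at PMI, 105 and 87.2 at bicellular, and 81.3 and 44.3 at PMII in wild type and 27.8 and 34.6 at PMI, 1.58 and 19.5 at bicellular, and 21.0 and 17.9 at PMII in ms35. Both had their highest wild-type arrays at PMI, and neither had a step that passed the test. For both, 1 or more ms35 arrays at bicellular and PMII were under the low limit, while no wild-type array was.

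AT3G54200, of the LEA hydroxyproline-rich glycoprotein family, was the named member with a clear wild-type peak at PMII. It read 203 and 182 at PMI, 139 and 138 at bicellular, and 346 and 343 at PMII in wild type and 57.0 and 53.0 at PMI, 54.6 and 60.4 at bicellular, and 105 and 93.5 at PMII in ms35. PMII was the highest stage in both genotypes, at a ratio of 3.50-fold at PMI, 2.41-fold at bicellular and 3.47-fold at PMII. Its wild-type rise from bicellular to PMII was 1.30 ± 0.19 (SE, log2; limma adjusted p = 0.00827). This was lost when bicellular replicate 1 (0.053), bicellular replicate 2 (0.0926) or PMII replicate 2 (0.0695) of wild type was left out, and when the arrays with the top GAPDH ratios both were (0.0503).

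The steps between stages within a genotype were tested across all 16464 probe sets. The choice of members did not use these steps, but it used the same arrays. The array above 100 that a member needed was always a wild-type one, a selection that the other probe sets do not share. The member counts and the shares beside them are therefore a description, and not independent support for a stage pattern. From PMI to bicellular in wild type, 14 members rose and 0 fell, against 10.8% and 7.29% of all tested probe sets (15.9% and 11.1% of the 9474 with an array above 100). At an unadjusted p under 0.05 in limma, 18 members were higher and 7 lower, where 20.0% and 12.3% of all tested probe sets were. The median member step was 0.37 on the log2 scale, and 0.14 over all tested. The count of 14 was 8 with bicellular replicate 1 of wild type left out, 7 with PMI replicate 2 left out and 7 with bicellular replicate 2 left out, and the shares of the 9474 called higher were then 8.80%, 8.11% and 5.94%. With a pseudocount of 16, or with only the arrays compared, it was 23.

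From bicellular to PMII in wild type, 20 members fell and 1, AT3G54200, rose, where 1.01% of all tested probe sets fell and 0.541% rose (1.68% and 0.908% of the 9474). The median member step was -1.45, against 0.04 over all tested. In 36 members both PMII arrays lay under both bicellular arrays, as in 21.2% of all tested probe sets and 26.5% of the 9474. Of the wild-type arrays, leaving out bicellular replicate 1 left 8 members called, PMII replicate 1 left 13, bicellular replicate 2 left 7 and PMII replicate 2 left 8. Leaving out both arrays with the top GAPDH ratios left 13, and 12 were called with no variance trend. In the sparsest of these settings 14.6% of the members fell, against 0.169% of the 9474.

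From PMI to PMII in wild type, 21 members fell and 4 rose (all tested 11.9% and 17.0%, and 18.3% and 23.6% of the 9474), with a median step of -1.03 against 0.19. A rise into and a fall out of the bicellular stage was called in 9 members, among them AT5G60720, AT4G27435 and 257896_at, where it was called in 41 of 16464 probe sets (0.249%, or 0.433% of the 9474). This count was 3 when bicellular replicate 1, bicellular replicate 2 or PMI replicate 2 of wild type was left out, and 17 with a pseudocount of 16 or with only the arrays compared. In 17 members no wild-type step was called, against 67.4% of all tested probe sets and 53.4% of the 9474.

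The steps within ms35 are read with caution, because the members were chosen to be low there, 8 of them on all 6 ms35 arrays and 22 more on some. From PMI to bicellular, 1 rose and 1 fell (all tested 1.63% and 1.01%), from bicellular to PMII 0 rose and 0 fell (all tested 0.231% and 0.182%), and from PMI to PMII 2 rose and 10 fell (all tested 11.7% and 9.62%). Of the 9474 brighter probe sets, 2.53% rose and 1.60% fell in the first of these steps, 0.380% and 0.296% in the second, and 17.1% and 15.0% in the third. For the middle comparison, 2 members were higher and 7 lower in limma at an unadjusted p under 0.05, where 7.93% and 8.31% of all tested probe sets were. The PMI to PMII count of 12 was 5 without ms35 PMII replicate 1, 7 without ms35 PMI replicate 2 and 6 with only the arrays compared. Over the whole array the shares of probe sets called were smaller in ms35 than in wild type.

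Set side by side, the 14 members that rose into bicellular in wild type had a median step of 2.17 there (0.87 to 3.18) and of -0.17 in ms35 (-2.06 to 1.88). The 20 that fell out of bicellular had a median step of -3.33 in wild type (-5.86 to -1.28) and of -0.17 in ms35 (-1.89 to 1.10). Of these 20, 6 were low on every ms35 array, as were 4 of the 14. The members were picked for their wild-type steps in this reading and the difference between genotypes was not tested.

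**Figure D3:**
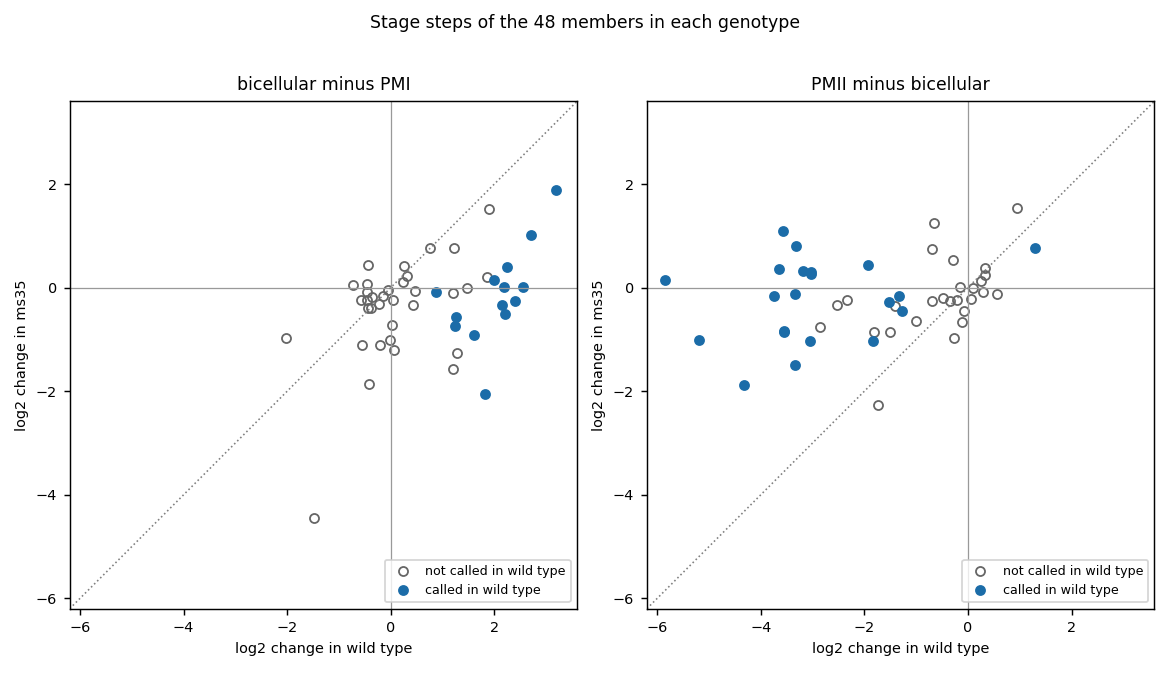
Stage step in ms35 (vertical axis, log2 change) against the same step in wild type (horizontal axis, log2 change) for the 48 members, with bicellular minus PMI on the left and PMII minus bicellular on the right. Filled points were called in wild type by limma; the dotted line marks equal steps. The filled points reach 3.18 and -5.86 on the wild-type axis and stay between -2.06 and 1.88 on the ms35 axis.

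The late pollen and tapetum sums moved across these stages too. From PMI to bicellular the wild-type late pollen sum went from 3669 to 3710 down to 387 to 595, and the tapetum sum from 292 to 349 up to 2940 to 4285. In ms35 the late pollen sum went from 2406 to 2902 down to 524 to 1374, and the tapetum sum from 417 to 593 up to 1783 to 3833. The sum of 3 measured photosynthetic genes, of 7 listed, went from 1172 to 1435 at PMI to 3811 to 3835 at PMII in wild type, and from 1129 to 1568 to 3637 to 4323 in ms35. No measured gene of these 3 lists was low on all 12 arrays, and their part in the members' stage steps was not tested.

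Averaged over the stages, none of these marker genes was called between the genotypes by limma: 0 of 10 late pollen genes (2 at an unadjusted p under 0.05), 0 of 5 tapetum genes, 0 of 3 photosynthetic genes, 0 of 2 carpel and perianth genes and 0 of 1 sperm cell gene (0 unadjusted in each). The list medians were 0.02, 0.30 and 0.13 for late pollen, tapetum and photosynthetic genes, and 0.02 over all tested. Of all tested probe sets, 3.03% were called lower and 2.24% higher in ms35.

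The lists could be matched only to probe sets with exactly 1 gene in the annotation. Among these, no gene of the secondary wall, lignin or anther opening lists is a member. Those that met the terms were left out by name. The 32 members with no gene listed and the 1 with several could not be matched, so listed genes may be among them. Of the 28 cellulose and xylan genes of secondary walls, 6 had a single-gene probe set, and the others were not looked at. Averaged over the stages, 3 of the 6 fell in ms35, where 3.03% of all tested probe sets did. The median of the 6 was -1.36 on the log2 scale. IRX15-L, 1 of the 3, met the terms on ratio and signal, so nothing is read from its call. IRX15-L and IRX15, needed for xylan, and TBL34, which acetylates xylan, were the 3, and the call of IRX15 was lost under 5 alternatives, among them leaving out PMI replicate 1, PMI replicate 2 or bicellular replicate 2 of wild type (limma adjusted p up to 0.0927). The log2 difference of TBL34 was -1.88 ± 0.38 (SE; limma adjusted p = 0.0128, and 0.0518 without wild type bicellular replicate 1). GUT2, a protein of glucuronoxylan synthesis, at -0.84 (limma adjusted p = 0.0757), did not pass, nor did GUT1 and TBL35 at -0.16 and 0.05. The GUT2 means in wild type and ms35 were 46.9 and 40.1 at PMI, 165 and 38.8 at bicellular, and 46.3 and 37.3 at PMII.

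Of the 22 regulators of secondary walls, 1 had a single-gene probe set, the zinc finger gene AT1G66810, and the others were not looked at. Averaged over the stages, AT1G66810 fell by 2.34 ± 0.35 (SE, log2; limma adjusted p = 0.00188). Its mean signals in wild type and ms35 were 29.0 and 27.7 at PMI, 408 and 8.59 at bicellular, and 54.3 and 19.9 at PMII. Of 23 lignin genes 5 had a single-gene probe set and 3 were tested. HCT, an enzyme of lignin monomer synthesis, was the 1 that fell. It too met the terms on ratio and signal, so nothing is read from its call. The peroxidase AT1G44970, at -0.44, and AT4G16270, at 0.43, did not pass. The AT1G44970 means in wild type and ms35 were 27.7 and 61.6 at PMI, 617 and 245 at bicellular, and 1185 and 542 at PMII. ADPG1, a polygalacturonase of anther opening, was the 1 gene of 10 on that list with a single-gene probe set. Its difference of 0.61 did not pass in limma (0 of 1 at an unadjusted p under 0.05).

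The 15 members with 1 gene lie on all 5 chromosomes, with 4 on chromosome 1, 2 on chromosome 2, 3 on chromosome 3, 2 on chromosome 4 and 4 on chromosome 5. The 10 nearest measured loci on each side of these members, 300 in all, were looked at, an analysis added after the data were seen. The labels do not settle whether the lines share a background. A difference between lines at a single gene need not reach its neighbours, so these values cannot decide that question. Of these neighbours 6 were called lower in ms35 (2.00%) and 10 higher (3.33%), against 2.66% and 2.17% of the 9091 located probe sets. Neighbour medians ran from -0.03 to 0.27 on the log2 scale, and no neighbourhood held another of the 15. Only tested single-gene probe sets could be neighbours, so the 32 members with no gene listed and the 1 with several could not appear. Loci without such a probe set were skipped. The next measured locus beside AT1G72230, AT1G72220, was lower in ms35, with a difference of -1.23 ± 0.21 (SE; limma adjusted p = 0.00377), and so was AT4G27450, near AT4G27435, at -1.36 ± 0.25 (limma adjusted p = 0.00687). Beside AT5G20700 and AT3G49300 the next loci were higher in ms35, AT5G20740 by 0.85 ± 0.15 (limma adjusted p = 0.00496) and AT3G49270 by 2.25 ± 0.45 (limma adjusted p = 0.0116). Of the other called neighbours, the largest differences were near AT1G12400. There AT1G12730 was higher in ms35 by 2.38 ± 0.48 and AT1G12320 by 2.25 ± 0.46.

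**Figure D4:**
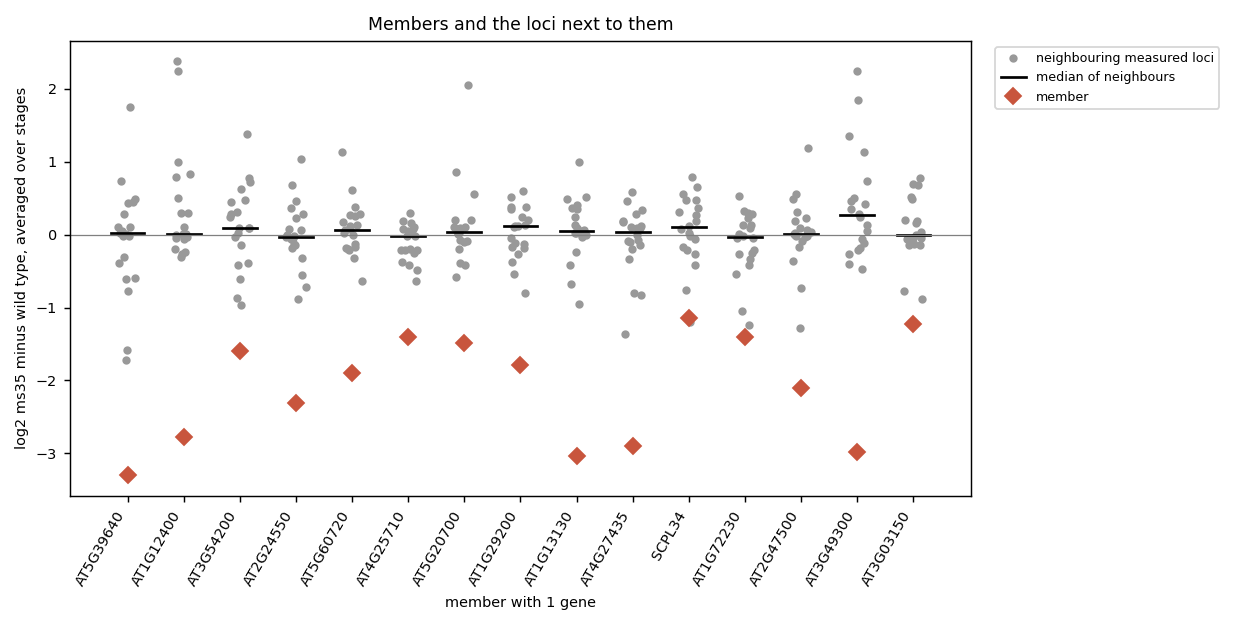
Log2 difference between ms35 and wild type, averaged over the stages, for the 15 members with 1 gene (diamonds). Grey points are the 20 nearest loci of each that have a tested single-gene probe set, with bars at their medians. The neighbour medians lie between -0.03 and 0.27 while the members, chosen for this contrast, lie below.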

How the data were processed

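RNA of 12 samples was hybridised to Affymetrix ATH1 arrays. The authors deposited 1 linear intensity (signal) for each probe set, made with MAS5 and GCOS, per the submitters' processing notes. The mean after trimming 2% of values at each end was 100.01 on every array. The number of arrays limits the precision.

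Of 22810 probe sets, 64 controls were left out. Membership was read from the deposited signals. For the tests, log2(signal + 2.23) was taken, where 2.23 is the 10th percentile of the signals, and fold changes on this scale understate those of dim genes. The 16464 probe sets with at least 2 arrays above 25.5, the 40th percentile, were tested, and all 48 members were among them. The model, limma 3.58.1 in R 4.3.3, had the means of the 6 groups, moderated variances with an intensity trend and 6 residual degrees of freedom. Calls used a Benjamini-Hochberg adjusted p under 0.05 over all tested probe sets. The fit was tested on simulated data.

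Genes were named through the probe annotation given with the series (1 gene for 13513 probe sets, several for 503, none for 8730), brought up to date with a gene table of assembly TAIR10.1, which was also used for the order of loci. The members, the 9 gene lists, the tests and the naming rule were chosen with earlier results of these data known. The rule names the first 12 single-gene members by their smallest ratio, further ones with a gene symbol or described function, and the first 4 members without a single gene. From each list it takes up to 4 genes past the test.

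The alternatives tried were quantile normalization and median centring, another or no pseudocount, a stricter or no filter, a block for replicate number, no variance trend, only the arrays compared, other membership thresholds, and leaving out each array or both arrays of highest GAPDH ratio.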

Additional observations from a re-analysis of the deposited data

Results flagged for a closer look

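In 13 of the 48 members, and in 10.5% of all tested probe sets, both arrays of one label lay above both arrays of another in wild type and below them in ms35. The 5 of these that have 1 gene, or whose signals the report gives on each array, are given here. None of these differences between the genotypes was tested. From PMI to bicellular, 257896_at changed by 1.83 on the log2 scale in wild type and by -2.06 in ms35, where its signals were all low. Over the same step AT5G60720 changed by 1.26 in wild type and -0.56 in ms35, and AT4G27435 by 1.61 and -0.91. AT3G03150, chosen after its values were seen and called in neither genotype, went the other way, by -0.43 in wild type and 0.43 in ms35. From bicellular to PMII the cupredoxin AT1G72230 changed by -0.69 in wild type and 0.74 in ms35. Neither AT1G72230 value passed the test within its genotype, with limma adjusted p of 0.198 and 0.16, and the ms35 values of the others did not pass either.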

How the results depend on the processing

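With a ratio of 2 in place of 1.5 there were 21 members, and with a ratio of 5 to 4 there were 115. Leaving out 1 array gave 51 to 79 members, the most without ms35 PMI replicate 2, and leaving out both arrays of highest GAPDH ratio gave 77; fewer arrays make the terms easier to meet. Quantile normalization and median scaling gave 48 and 49 members, 43 of them shared with the 48. The members called from PMI to bicellular in wild type (14) were 23 with a pseudocount of 16, 23 with only the arrays compared, and 7 to 18 with 1 array left out. From bicellular to PMII in wild type (21) they were 12 with no variance trend, 13 without both arrays of highest GAPDH ratio and 7 to 23 with 1 array left out, and from PMI to PMII (25) 17 to 27. The members called both into and out of bicellular (9), a count whose alternatives were chosen after seeing the data, were 17 with a pseudocount of 16, 17 with only the arrays compared, and 3 to 11 with 1 array left out. In ms35 the counts were 4 with the replicate number as a block, 0 with only the arrays compared, 4 without both arrays of highest GAPDH ratio and 1 to 4 with 1 array left out from PMI to bicellular (2), 0 to 4 with 1 array left out from bicellular to PMII (0), and 6 with only the arrays compared and 5 to 14 with 1 array left out from PMI to PMII (12). The cause of these shifts was not tested. No value changed direction under any alternative run, and the other 164 counts stayed within 1.5 times. Under median centring the share of the 9474 brighter probe sets called from PMI to bicellular in wild type split into 11.6% higher and 13.1% lower, against 15.9% and 11.1%, while the members split 14 and 1. Of the values of single genes, 1101 kept their call or stayed within 1 SE, 49 lost their call and 32 moved by more than 1 SE. Over 15 pairs of groups the correlation of same-numbered deviations ran from -0.126 to 0.182. It was over 0.1 in 4, all of them among wild type PMII and the ms35 groups. Whether replicate numbers pair part of the samples was not tested further. The block changed no other count by over 1.5 times. The number of arrays, 2 in a group, and signals near the low limit set how small a step could be called.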
